A study of Rattus norvegicus with 6 samples.

Results

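The comparison set 2 liver libraries of rats given carcinogens together with N-acetylcysteine (NAC), the HCC/NAC group, against 2 libraries of control rats. They were chosen by their sample titles, as 4 of the 6 libraries in the series. The animals were male rats of the inbred strain Fischer-344, weighing about 180 g, and the study lists 18 of them in 3 groups over 16 weeks. Control rats received 0.5% carboxymethyl cellulose by mouth every day. HCC/NAC rats received weekly intraperitoneal diethylnitrosamine (DEN) at 50 mg/kg, followed by oral 2-acetylaminofluorene (2-AAF) at 25 mg/kg, and oral NAC at 300 mg/kg daily. The remaining group, HCC, had the same carcinogens without NAC and is used here only for values set side by side. The control and HCC/NAC groups thus differed in 3 agents at once, and whether the carcinogen-treated rats also received the vehicle is not stated. For each group, RNA from 5 animals was pooled to make the 2 replicates. Nothing says that the replicates held different animals, so p-values cover only the variation among these libraries, possibly technical.

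DEN is activated by liver cytochrome P450 enzymes to a species that alkylates DNA. 2-AAF is an aromatic amine whose activated metabolites form bulky DNA adducts, and together the agents produce hepatocellular carcinoma (HCC) in rats. NAC supplies cysteine for glutathione, the thiol that detoxifies oxidants and electrophiles in hepatocytes. A healthy liver devotes a large part of its messenger RNA to a small number of abundant transcripts, many of them for secreted plasma proteins.

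The count tables list Ensembl rat gene IDs and do not pair them with symbols. The reference table held 47357 rat genes but 0 Ensembl IDs, so 0 of 43360 IDs received a name. Which liver functions the changed IDs belong to was therefore not analysed here, and the labelled tissue was not checked against marker genes. The IDs are described by their abundance, the size of their change and their presence or absence.

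Total counts of the 4 libraries ranged from 35528032 to 37541682, and 15853 IDs passed the expression filter. Their spread between replicates depended on abundance. At a mean of 1 to 10 CPM (counts scaled to library size), 12.6% of IDs lay more than 2-fold apart between the control replicates and 13.7% between the HCC/NAC replicates. At 100 to 1000 CPM the shares were 0% in both groups. Across IDs, log2 CPM correlated with r = 0.97 between the control replicates, 0.96 between the HCC/NAC replicates and 0.86 to 0.88 between the groups. These coefficients describe the libraries, since genes are not independent replicates. The counts at the bottom of the range differed between the control replicates, with 336 IDs at 1 to 5 counts in replicate 1 and 3271 in replicate 2. The HCC/NAC libraries held 632 and 708 such IDs, and the HCC libraries 2847 and 3364. Zeros opposite 20 to 50 counts in the other replicate of a group were also uneven. Of such IDs, 11.5% were at 0 in control replicate 1, 2.95% in control replicate 2, and 13.4% and 10.9% in the HCC/NAC libraries. In the HCC libraries the shares were 0.115% and 0.460%. HCC and HCC/NAC libraries thus differed at low counts, which limits the comparison of their zeros and weak IDs below. The part of this unevenness in the calls of weak IDs was not tested.

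**Figure D1:**
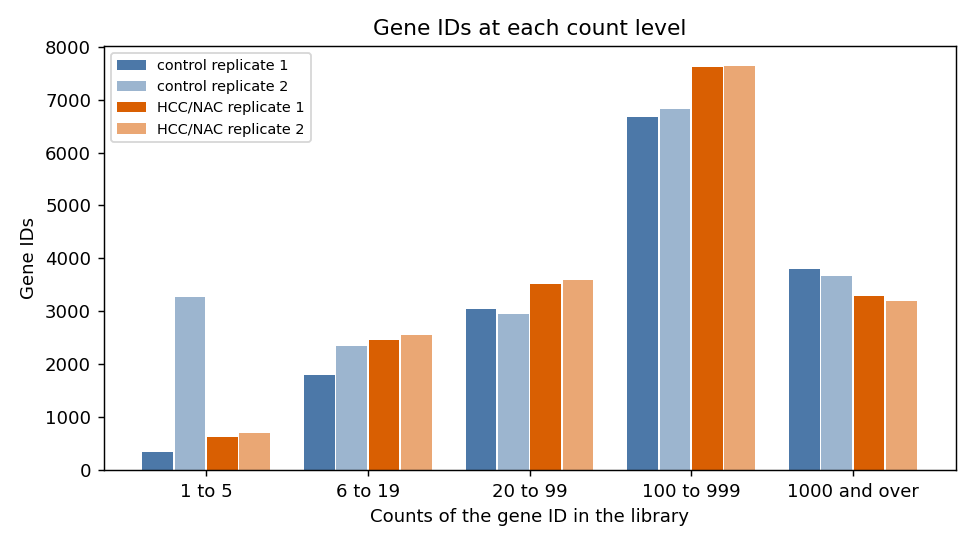
Number of gene IDs (y axis) at each level of raw counts (x axis) in the 2 control and 2 HCC/NAC libraries, 1 bar per library. Control replicate 2 stands above the other libraries shown at 1 to 5 counts, with 3271 IDs. The HCC libraries, not drawn, held 2847 and 3364 such IDs. The replicates of each group shown are close at 100 counts and above.

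Messenger RNA of HCC/NAC livers was concentrated in fewer transcripts than that of control livers. In control replicates 1 and 2, 84 IDs each were enough to reach 50% of all counts. In the HCC/NAC libraries 32 and 31 IDs reached it, and in the HCC libraries 114 and 110. The effective number of IDs, the exponential of the Shannon entropy of the count shares, was 831 ± 0.23 (SD, n = 2) in control and 466 ± 7.4 (SD, n = 2) in HCC/NAC livers. It was 1028 ± 17 (SD, n = 2) in HCC livers, so with all IDs counted HCC/NAC and HCC lay on opposite sides of control. The groups did not overlap, but an exact permutation test of 2 libraries against 2 cannot give a two-sided p below 0.333.

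The concentration lay in the most abundant IDs. The 20 IDs with the highest mean CPM over the 4 libraries took 32.3% and 32.2% of counts in the control libraries and 44.8% and 45.1% in the HCC/NAC libraries. With these 20 IDs left out, the effective number was no longer lower in HCC/NAC, at 2581 and 2554 beside 2315 and 2313 in control. In the HCC libraries it was then 3131 and 3091, so both carcinogen-treated groups lay above control. The ranking used the HCC/NAC libraries too, which favours IDs high there, so this is a description only. Of the 20, 10 rose, 9 fell and 1 had no call. Here and below, rose and fell refer to a Benjamini-Hochberg adjusted p under 0.05 in edgeR's quasi-likelihood test over all tested IDs. Over all tested IDs 19.5% rose and 22.3% fell, and among the 105 IDs at 1000 CPM or more 32.4% rose and 55.2% fell. Tested against a change of 2-fold itself (edgeR's glmTreat), 9 of the 20 were higher and 1 was lower.

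Of the 10 abundant IDs that rose, 9 did so by 1.18 to 1.80 on the log2 scale, and the other by 0.42 ± 0.04 (SE). Together the 9 IDs took 11.02% and 10.70% of counts in control, 16.9% and 17.0% in HCC, and 31.5% and 31.9% in HCC/NAC livers. The most abundant ID of all rose from 4.22% and 4.11% of counts in control to 12.4% and 12.5% in HCC/NAC livers, with 7.12% and 7.26% in HCC. Its log2 fold change was 1.63 ± 0.02 (SE; adjusted p = 1.77e-12, edgeR). In a fit to all 6 libraries, the 9 IDs differed from control by -0.20 to 0.54 in HCC livers on the log2 scale. The fit scales the libraries by TMM and the shares are not scaled, so they can disagree. The IDs of ranks 7 and 9 had larger shares in HCC than in control but fitted changes of -0.07 and -0.20. The same fit placed HCC/NAC above HCC by 1.161 to 1.503 for the 9 IDs. They were chosen for their high HCC/NAC level, so this is a description only, and the comparisons share control or HCC/NAC libraries.

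Among the 9 of these 20 IDs that fell, the ID of rank 8 changed most. It held 2.82% and 2.90% of counts in control and 0.382% and 0.380% in HCC/NAC livers, which is -2.86 ± 0.04 (SE; adjusted p = 1.65e-12, edgeR) on the log2 scale. In the HCC libraries it held 0.066% and 0.065%, lower still. The ID of rank 19 was ordered in the same way, with 0.827% and 0.819% in control, 0.428% and 0.436% in HCC/NAC, and 0.053% in each HCC library. By share of counts, HCC/NAC lay between control and HCC for 4 of the 9 fallen IDs, those of ranks 2, 8, 17 and 19. For the other 5, of ranks 4, 15, 16, 18 and 20, HCC/NAC was the lowest group. In the 6-library fit, HCC/NAC exceeded HCC by 2.91 ± 0.02 at rank 8 and 3.40 ± 0.02 (SE) at rank 19 on the log2 scale. At ranks 4 and 20 the difference was -0.60 ± 0.02 and -0.47 ± 0.02 (SE), and at ranks 16 and 18 it was -0.15 and -0.14. At rank 15 it was 0.02 ± 0.02 (SE; adjusted p = 0.470, edgeR). The ID of rank 2, the most abundant in control, fell by 0.46 on the log2 scale, from 7.87% and 8.06% to 5.62% in both HCC/NAC libraries.

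**Figure D2:**
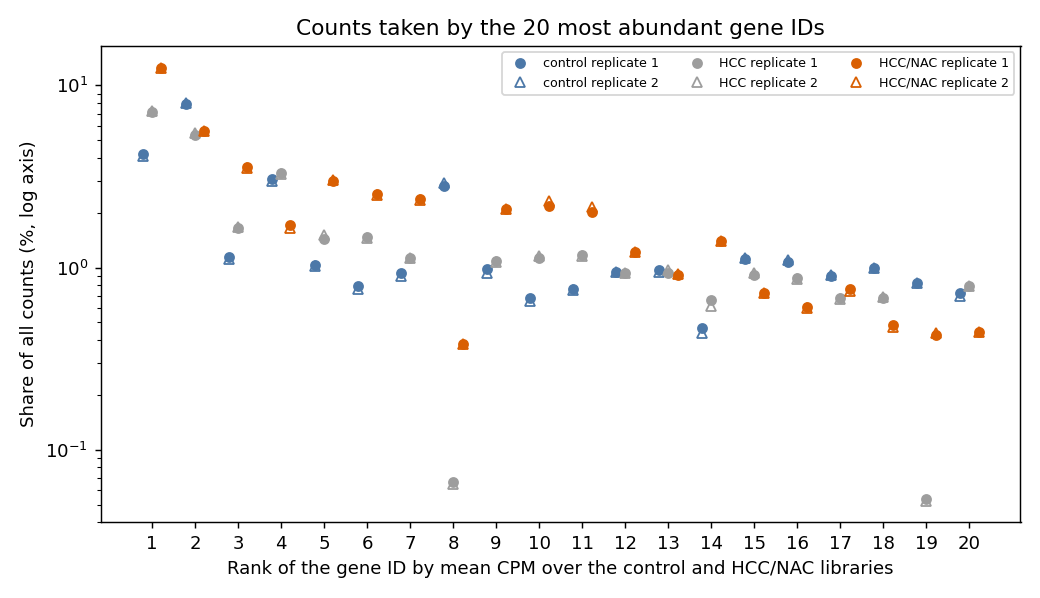
Share of all counts (y axis, log scale, percent) taken by each of the 20 most abundant gene IDs (x axis, by rank) in every control, HCC and HCC/NAC library, 1 point per library. Replicates nearly coincide, and at ranks 1, 3, 5 to 7, 9 to 12 and 14 the HCC/NAC points lie above the others. They lie between control and HCC at ranks 2, 8, 17 and 19, and below both at ranks 4, 13, 15, 16, 18 and 20.

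Over the whole table, 6618 of 15853 tested IDs differed between HCC/NAC and control livers, or 41.7%. Of these, 3084 rose, 19.5% of those tested, and 3534 fell, 22.3%. Which direction prevailed depended on the analysis, since more IDs rose than fell in 4 of 14 alternatives. At an unadjusted p under 0.05, 49.1% of IDs differed. Groups that do not overlap were commoner than calls. Both HCC/NAC libraries lay above both control libraries for 37.7% of IDs and below them for 34.9%, together 72.6%. All 3084 risen and all 3534 fallen IDs were among these.

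The risen IDs took 22.1% and 21.9% of counts in the control libraries and 52.2% and 52.5% in the HCC/NAC libraries. The fallen IDs went from 61.5% and 61.6% to 31.9% and 31.6%. IDs without a call held 16.4% and 16.5% in control and 15.9% and 15.8% in HCC/NAC livers. The calls chose these sets, so the shares describe how much of the RNA they cover and test nothing.

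The size of the change had a median of 2.43-fold among risen and 1.96-fold among fallen IDs. Median standard errors were 0.23 and 0.15 on the log2 scale. Risen IDs had a median abundance of 11.2 CPM and fallen IDs of 27.2 CPM, and the order of the median folds differed by abundance class. For risen and fallen IDs they were 3.61 and 2.68 at 1 to 10 CPM, and 1.78 and 1.79 at 10 to 100 CPM. At 100 to 1000 CPM they were 1.59 and 1.86, and at 1000 CPM or more 2.27 and 1.74. At least 2-fold rises were made by 1919 IDs, 12.1% of those tested, and at least 2-fold falls by 1685, 10.6%. At least 4-fold rises numbered 931 and falls 443, of which 274 and 107 were in IDs under 1 CPM. For IDs at 0 in both libraries of a group, 201 of the risen and 106 of the fallen, the fold was also computed against 3 counts per library. The 2-fold and 4-fold counts and the medians of 2.43-fold and 1.96-fold were the same with that bound. These counts rest on the fitted value; tested against a change of 2-fold itself, 824 IDs were higher and 754 lower (edgeR's glmTreat).

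**Figure D3:**
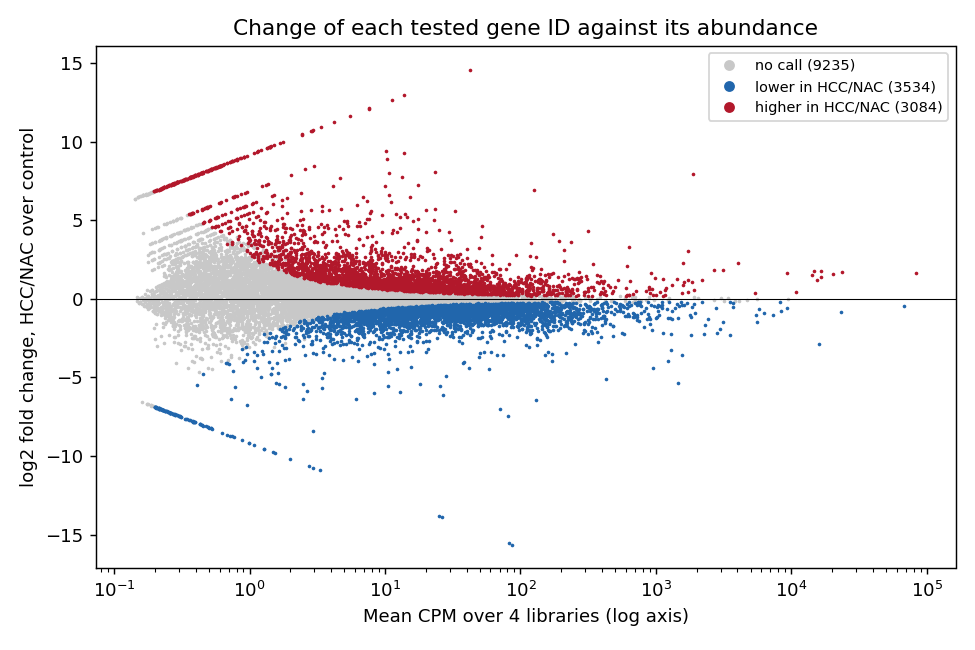
Fitted log2 fold change of HCC/NAC over control (y axis) against mean CPM over the 4 libraries (x axis, log scale) for each of 15853 tested gene IDs. Risen IDs (3084) and fallen IDs (3534) are coloured; the straight rays at low CPM are IDs at 0 in a group, whose fitted value depends on the prior count.

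The direction of change went with abundance. Of 105 IDs at 1000 CPM or more, 34 rose (32.4%) and 58 fell (55.2%). Among 903 IDs at 100 to 1000 CPM, 230 rose (25.5%) and 542 fell (60.0%). The class of 10 to 100 CPM held 6124 IDs, of which 1374 rose and 2172 fell. At 1 to 10 CPM the order turned, with 1172 rises and 655 falls among 5835 IDs, and below 1 CPM 274 of 2886 IDs rose and 107 fell. In all, 1638 IDs of at least 10 CPM rose and 2772 fell, but with only those IDs in the fit 2385 rose and 2374 fell, so this surplus of falls depended on the IDs used. The median log2 fold change over all tested IDs was 0.06, beside -0.43 at 100 to 1000 CPM and 0.23 at 1 to 10 CPM. Upper-quartile scaling shifted the IDs by a median of 0.11, and the fit restricted to 10 CPM and above shifted them by 0.18.

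**Figure D4:**
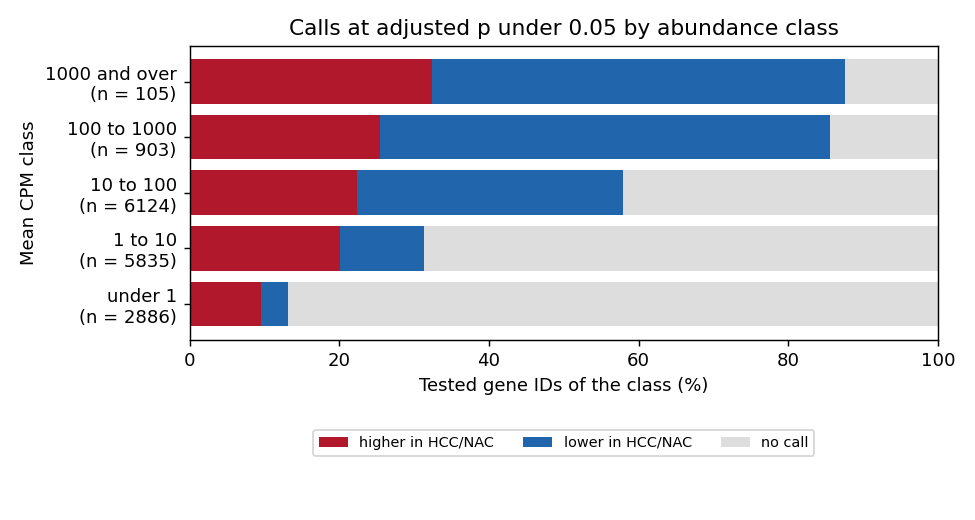
Share of tested gene IDs (x axis, percent) that were higher, lower or without a call in HCC/NAC against control, by class of mean CPM (y axis, with the number of IDs). The share called grows with abundance, and IDs without a call make up 86.8% of the class under 1 CPM and 12.4% of the class at 1000 CPM and over.

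The 105 most abundant IDs included 4 that rose and 11 that fell by at least 4-fold, a set chosen after the values were seen. The largest of these rises was in the ID of rank 53, a 249-fold change (log2 fold change 7.96 ± 0.08, SE; adjusted p = 7.90e-14, edgeR). On a scale shared by all 6 libraries it stood at 15.9 and 17.5 CPM in control, 4697 and 4877 CPM in HCC, and 3996 and 4051 CPM in HCC/NAC livers. Both control libraries were low and all 4 carcinogen-treated libraries high. The other 3 rises behaved differently. The ID of rank 60 stood at 418 and 414 CPM in control, 1137 and 1141 CPM in HCC, and 3209 and 3402 CPM in HCC/NAC livers. The IDs of ranks 66 and 27 were ordered in the same way, so that HCC lay between control and HCC/NAC for these 3 IDs.

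The largest of the 11 falls was in the ID of rank 72. It stood at 3138 and 3186 CPM in control, 20.2 and 18.8 CPM in HCC, and 74.9 and 73.8 CPM in HCC/NAC livers on the same scale. Its log2 fold change between HCC/NAC and control was -5.36 ± 0.06 (SE; adjusted p = 1.91e-13, edgeR). The ID of rank 85 fell 15.3-fold, that of rank 68 fell 11.98-fold and that of rank 80 9.60-fold. The other 7, among them the ID of rank 8, fell 4.42-fold to 7.27-fold. Of the 11, only the ID of rank 81 was higher in HCC, at 919 and 899 CPM, than in HCC/NAC livers, at 503 and 471 CPM. For each of the others both HCC libraries lay below both HCC/NAC libraries. The gap was narrow at rank 45, with 815 and 834 CPM in HCC beside 842 and 844 CPM in HCC/NAC.

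The IDs with the largest fitted changes among those of at least 2 CPM on average were present in one group and absent from the other. ENSRNOG00000002331 had 0 counts in both control libraries and 2946 and 3016 counts in HCC/NAC replicates 1 and 2, or 84.7 ± 2.9 CPM (SD, n = 2). Taking 3 counts per control library as the limit of detection, it was at least 1058-fold higher in HCC/NAC livers (adjusted p = 1.74e-10, edgeR). The HCC libraries held 4172 and 4036 counts, and HCC/NAC differed from HCC by -0.09 ± 0.09 (SE; adjusted p = 0.504, edgeR) on the log2 scale. ENSRNOG00000010210 had 0 counts in both control libraries and 1036 and 893 in the HCC/NAC libraries, or 27.4 ± 2.4 CPM (SD, n = 2). It was at least 342-fold higher by the same limit (adjusted p = 1.35e-08, edgeR). Its HCC counts were 2981 and 2607, above both HCC/NAC libraries. Here the HCC/NAC level was lower than the HCC level by -1.16 ± 0.12 (SE; adjusted p = 2.86e-05, edgeR) on the log2 scale, yet above control in both libraries.

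ENSRNOG00000083891 went the other way, from 6272 and 6772 counts in control, or 174 ± 20 CPM (SD, n = 2), to 0 counts in both HCC/NAC libraries. By the limit of 3 counts, that is at least 2046-fold lower (adjusted p = 6.34e-11, edgeR), and the HCC libraries held 2 and 0 counts. ENSRNOG00000081104 fell from 6216 and 6118 counts, or 165 ± 7.8 CPM (SD, n = 2), to 0 counts in both HCC/NAC libraries. By the same limit, the drop was at least 1931-fold (adjusted p = 2.83e-11, edgeR). It was at 0 counts in both HCC libraries as well. Both fallen IDs were thus at or near 0 in all 4 carcinogen-treated libraries. These bounds cover counting error only. Among IDs with 20 to 50 counts in the other replicate, 11.5% were at 0 in control replicate 1, and 13.4% and 10.9% in the HCC/NAC libraries. A 0 may thus stand for more than 3 counts, and the folds of the 4 IDs may lie below these bounds. The genomic positions of the 4 IDs were not analysed here, and reads shared with near-identical copies could be assigned elsewhere by the counting.

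**Figure D5:**
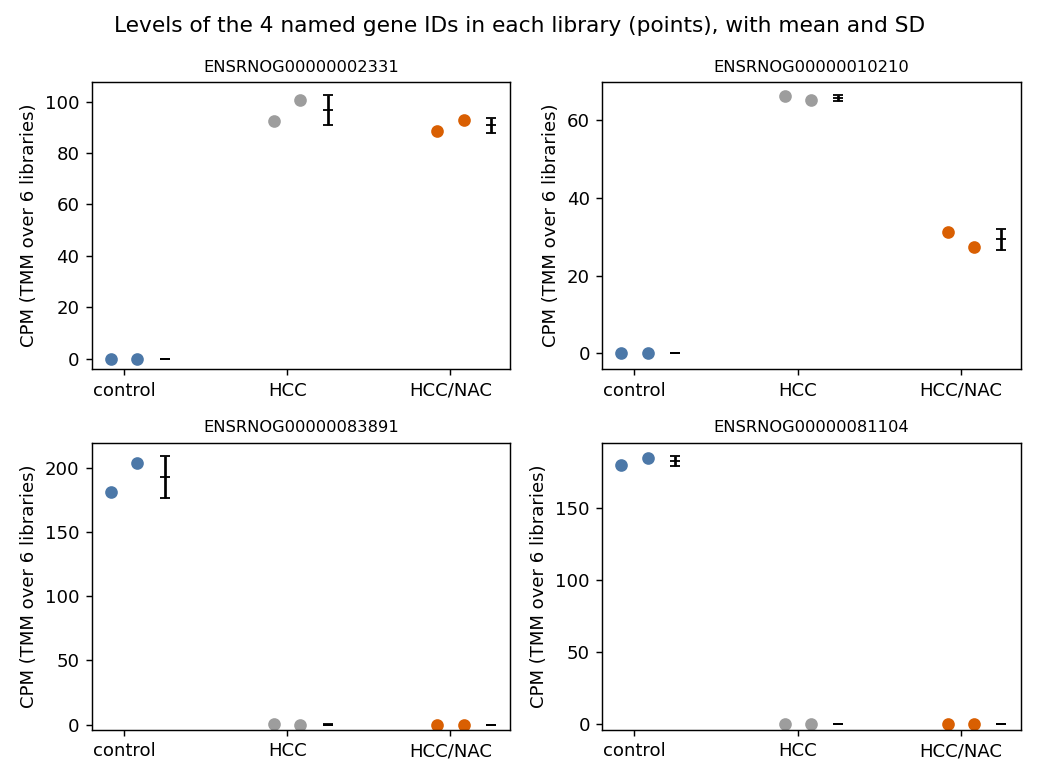
CPM on a scale shared by all 6 libraries (y axis) of the 4 named gene IDs in the control, HCC and HCC/NAC groups (x axis); coloured points are libraries, and black marks are the mean with its SD (n = 2). The 2 risen IDs are at 0 in control, and the 2 fallen IDs are at or near 0 in HCC and HCC/NAC livers.

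Few IDs switched fully at well-covered levels, given here as mean CPM on the scale shared by all 6 libraries, on which values differ from those of the 4-library scaling above. Only 13 IDs had 0 counts in both control libraries and 100 or more in both HCC/NAC libraries, at 5.19 to 90.8 CPM. Both HCC libraries also held 100 or more counts of each of the 13, at 3.44 to 96.7 CPM. The reverse, 0 counts in both HCC/NAC libraries and 100 or more in both control libraries, was found for 8 IDs, at 4.42 to 193 CPM in control. Of these 8, 5 were at 0 in both HCC libraries, and the highest HCC mean of the other 3 was 2.81 CPM. The same contrast inside a group was seen once: 1 ID was at 0 in HCC/NAC replicate 2 with 100 or more counts in replicate 1, and 0 IDs did so in control.

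For most IDs without a call the change was not tightly bounded. Of 9235 IDs without a call, 1542 (16.7%) had a 95% interval of the log2 fold change that lay within 1.5-fold of control. For the other 7693 the interval reached further. Among IDs without a call, 2126 had a fitted change of at least 2-fold, and all 2126 had a mean under 10 CPM. Counting called IDs too, 1806 IDs (11.4% of those tested) had an interval within 1.5-fold, and 264 of them were called. Their share was 34.3% at 1000 CPM and over and 0.703% at 1 to 10 CPM. The ID of rank 13 was the only one of the 20 most abundant without a call, at -0.02 ± 0.03 (SE; adjusted p = 0.743, edgeR) on the log2 scale.

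The control tables carry another name prefix than those of all carcinogen-treated libraries. Whatever this prefix marks cannot be told apart from the treatment.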

How the data were processed

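Poly(A)-selected libraries were made from total liver RNA, per the labels' protocols, which call the pooled animals mice where the organism label says rat. FastQC, STAR, featureCounts and edgeR are named in the submitters' processing notes. Each deposited table holds unscaled whole-number counts for 1 library, made from a STAR alignment, per the file headers. No genome build, annotation release, version or strand setting is given in the sources used here. Molecular identifiers are not mentioned, so limits cover counting error only.

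IDs were filtered with filterByExpr (at least 99.93% of each HCC/NAC and control library's counts kept). Counts were scaled by TMM (factors 0.98 to 1.04) and fitted to the 4 libraries alone with edgeR 4.0.16 (R 4.3.3) by quasi-likelihood, with 2 residual degrees of freedom and Benjamini-Hochberg adjustment at 0.05 over all 15853 IDs. Standard errors come from the F statistic. log2 CPM used a pseudocount of 0.1. HCC values beside the others come from counts, shares of counts or a TMM scaling and fit over all 6 libraries. The method was tested on counts simulated with the dispersions fitted to these 4 libraries, which cannot show whether the model suits the libraries.

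The comparison, the 22 gene lists and 11 marker sets were chosen with earlier results of these data known; none of the lists could be used without symbols. Named IDs are those with the 2 largest rises and 2 largest falls among called IDs of at least 2 CPM on average whose groups did not overlap. Alternatives were 2 other scalings (RLE, upper quartile), DESeq2 1.42.0, limma 3.58.1 (voom), 3 other filters, all 6 libraries, the replicate block, a 2-fold threshold and leaving out each library.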

Additional observations from a re-analysis of the deposited data

How the results depend on the processing

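The test against a 2-fold change called 1578 IDs (824 higher, 754 lower). Over the other 13 alternatives, calls ranged from 4759, in the fit to IDs at or above 10 CPM, to 7807, with all 6 libraries. The number of IDs tested differed as well. The 4759 calls were 66.7% of 7132 IDs and the 7807 calls 46.2% of 16898, beside 41.7% of 15853 in the main fit. No ID changed sides: 0 of the 6618 calls were made in the opposite direction in any of the 14 alternatives. The groups of all 6618 did not overlap and the alternatives draw on the same libraries, so opposite calls were unlikely from the start. Of the 6618, 6178 were also called under upper-quartile scaling, 6251 by DESeq2 and 6184 by limma voom. The fit to IDs at or above 10 CPM kept 4012 of the 4410 calls it tested. Leaving out 1 library gave 5741 to 6556 calls, 2415 to 3229 higher and 3001 to 3517 lower; the lone library of a group was then assumed to vary like the others. Rises outnumbered falls under upper-quartile scaling (3677 and 3094), with IDs of at least 10 CPM (2385 and 2374), against a 2-fold change, and without control replicate 2 (3229 and 3001). The cause was not tested. The 4 named IDs kept direction and call in each of 52 alternative values, with adjusted p up to 0.000696 (limma voom). They were chosen for the largest changes and were at 0 in both libraries of a group, so this outcome was nearly fixed beforehand. The stricter filter left all 4 untested. With the replicate number as a block 6471 IDs were called, 2948 higher and 3523 lower. The labels do not tie a number to an animal, a batch or a day, and same-numbered libraries did not deviate together (r = 0.02 across 11579 IDs). The alternatives for gene lists were not run, since no ID had a symbol. Precision differed with abundance: the median standard error was 1.58 on the log2 scale under 1 CPM and 0.08 at 100 to 1000 CPM.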
